A study of Mus musculus with 12 samples.

Results

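Adipocyte nuclei of a brown fat depot, iBAT, were compared with those of a white fat depot, iWAT, in a pair of single-nucleus RNA libraries from mice kept at 22 °C. The depots are named in the labels by these abbreviations alone, which are in common use for interscapular brown and for inguinal white fat. A nucleus was kept with at least 300 detected genes and at most 10% mitochondrial UMIs (unique molecular identifiers, each counting 1 captured RNA molecule). It was called an adipocyte when its summed UMIs of Adipoq, Plin1, Plin4, Lipe, Cidec and Acsl1 reached 3 and exceeded those of Flt1, Ptprb, Lama2, Dcn, Mrc1 and Ptprc, which mark vessel, stromal and immune cells. The nuclei were thus chosen by measured UMIs of these 12 genes. This gave 18769 of 21115 kept nuclei in iBAT and 5245 of 8280 in iWAT, together 24014 of the 74816 adipocyte nuclei that the same rule finds in the whole series. The series covers 12 libraries of adipose depots at several ages and temperatures, with 1 library for each condition. Both libraries here came from male C57BL/6J mice on Normal Chow diet, whose age reads 6 months in the library titles and 16 weeks in the sample characteristics. Nuclei had been sorted on a DNA stain before loading, and how many animals went into a library is not stated. Where other iBAT or iWAT libraries are used below, they are iBAT at 1 month (4 weeks) and 2 months (8 weeks) at 22 °C, and iBAT and iWAT at 6 months after 3 days at 4 °C, all from males of the same strain and diet.

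Brown adipocytes burn fat and glucose to make heat: noradrenaline from sympathetic nerves raises cyclic AMP, lipid droplets are broken down, and uncoupling protein Ucp1 lets protons back across the inner mitochondrial membrane without making ATP. White adipocytes store triglyceride in 1 large droplet, release fatty acids on demand and secrete hormones such as leptin. The pair of cell types also arises from different body positions, and adult fat cells keep part of the positional code of Hox and related factors.

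Levels are given in CPM, the UMIs of a gene per 1000000 UMIs summed over the adipocyte nuclei of a library. At 6 months and 22 °C each depot has 1 library and so no replicates, no test of the depot difference was made, and every interval in this text is a 95% interval for counting error alone. Differences between animals, dissections or preparations are not in these intervals. The adipocyte nuclei held 51794117 UMIs in iBAT and 40479391 in iWAT, with a median of 2307 and 6213 UMIs per nucleus. A library without a UMI of a gene allows a level of up to 0.0579 CPM in iBAT and 0.0741 CPM in iWAT. The pair shared 27 adipocyte barcodes. The iBAT library held 21384 barcodes, more than the number of nuclei that the labels say were loaded for a sample. Mitochondrial UMIs were 0.824% of the adipocyte total in iBAT and 0.196% in iWAT. Of the adipocyte nuclei, 93.9% in iBAT and 74.7% in iWAT had no UMI of the 6 markers of other cells.

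The markers of adipocytes were present in both libraries. Adipoq, the adiponectin gene, was at 121 CPM in iBAT and 228 CPM in iWAT, the droplet coat Plin1 at 1069 against 862 CPM, the lipase Lipe at 1105 against 1149 CPM and the droplet fusion protein Cidec at 346 against 2073 CPM, iBAT given first. These genes chose the nuclei, so their levels are a description of the choice. Cidec and Plin4 (249 against 1038 CPM) were more than 2-fold lower in iBAT, and Acsl1 (3926 against 2443 CPM) was within 2-fold. At the edge of the rule, 500 adipocyte nuclei in iBAT and 250 in iWAT had exactly 3 marker UMIs, and 377 and 255 kept nuclei missed it by 1 marker UMI.

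Markers of other cells in the adipocyte nuclei differed between the depots. Summed over 10 genes each, endothelial markers were 356 CPM in iBAT and 81.9 CPM in iWAT, progenitor markers 169 and 671 CPM, and immune markers 30.5 and 195 CPM. Of the endothelial sum in iBAT, Mecom alone made up 311 CPM, while Vwf was at 0.792 CPM and Emcn at 2.01 CPM. In nuclei led by the 6 other-cell markers, which are called other-cell nuclei below (1027 in iBAT and 1861 in iWAT), the same sums were 2899 and 952, 5317 and 6120, and 1257 and 3226 CPM. Mural markers (8 genes) were 101 and 129 CPM, muscle markers 23.6 and 19.6 CPM, and nerve and epithelial markers 30.2 and 27.6 CPM, with Krt18 at 0 in both. All 10 progenitor and all 10 immune markers had a negative log2 ratio of iBAT over iWAT, and 7 and 9 were past 2-fold, while no marker of these 2 lists was at 0. Their sum was thus higher in the iWAT adipocyte nuclei, and its part in the results below was not tested beyond the stricter nucleus rule given beside them, which keeps nuclei with no UMI of the 6 other-cell markers and at least 6 adipocyte marker UMIs. Levels in other-cell nuclei are given for some of the genes that are also high there, not for all.

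The depots differed across a large part of the measured genes. Of 17503 genes with at least 20 UMIs over both libraries, 1896 (10.8%) were at least 2-fold higher in iBAT and 2185 (12.5%) at least 2-fold lower, after 1 CPM was added to each level. With 10 CPM added in place of 1, these counts were 825 and 893. A difference of 8-fold or more, with 1 CPM added, was seen for 201 genes on the iBAT side and 298 on the iWAT side. The median log2 ratio over all counted genes was 0.01. Log2 ratios below are iBAT over iWAT with 1 CPM added, which understates the difference of rare genes. Statements that a gene is past, within or at least 2-fold rest on these log2 ratios. A gene near or under 1 CPM can thus be within 2-fold although its plain levels differ by more. Other folds are plain ratios of the levels.

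**Figure D1:**
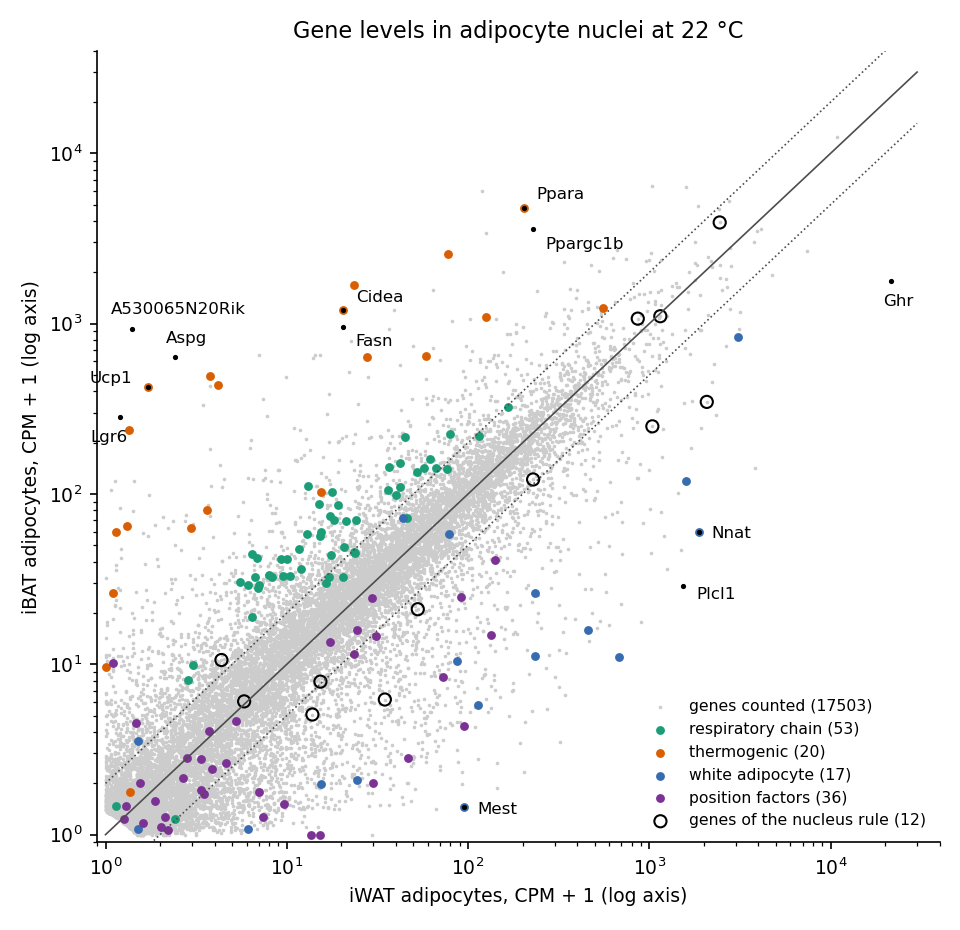
Each point is a gene, at its level plus 1 CPM in iWAT (horizontal, log axis) and iBAT (vertical, log axis) adipocyte nuclei at 22 °C, with dotted lines at 2-fold. Of 20 thermogenic genes (orange) 19 lie above the upper dotted line, and 13 of 17 white adipocyte genes (blue) lie below the lower one.

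Of 17 gene lists by role, that of heat production had the highest median ratio. Lists and members were chosen with earlier results of these data known. List counts and medians, here and below, are therefore a description that the choice set in part. Of the 20 thermogenic genes, all were counted, 19 were at least 2-fold higher in iBAT and none was lower, beside 10.8% and 12.5% of all genes. The median log2 ratio was 4.56. Ucp1 was at 425 CPM (419 to 431) in iBAT and 0.716 CPM (0.480 to 1.03) in iWAT, a ratio of 593-fold (95% interval 413 to 886). Its level in the other iBAT libraries was 337 CPM at 1 month, 497 CPM at 2 months and 1454 CPM after cold. Cold iWAT, at 30.0 CPM, lay above iWAT at 22 °C and below every iBAT library. Ucp1 occupies chr8:83290352-83298452 on the plus strand of GRCm38, the mouse build used for all positions here.

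Ucp1 RNA was not detected in every iBAT adipocyte nucleus, and a nucleus without a Ucp1 UMI is not shown to lack the RNA. After each nucleus was thinned to 1000 UMIs, 5138 of 16909 iBAT adipocyte nuclei (30.4%, 29.7 to 31.1) and 5 of 4922 iWAT nuclei (0.102%, 0.033 to 0.237) had a Ucp1 UMI. Thinning left out 1860 iBAT and 323 iWAT nuclei that were shallower. Other-cell nuclei at the same depth gave 30 of 695 (4.32%) in iBAT and 1 of 1693 (0.0591%) in iWAT, so the iWAT adipocytes did not exceed this background beyond counting error. The unthinned adipocyte shares were 49.0% and 0.248%, so the share depends on the depth of the nuclei. A group of nuclei without Ucp1 RNA was not tested for. The median depth of other-cell nuclei was 1292 UMIs in iBAT and 2229 in iWAT.

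Cidea, a lipid droplet protein typical of brown fat, was at 1196 CPM in iBAT and 19.5 CPM in iWAT, 61.2-fold (95% interval 57.1 to 65.7) higher in iBAT. Ppargc1a, the coactivator of mitochondrial biogenesis, was at 1091 CPM in iBAT and 124 CPM in iWAT, and its relative Ppargc1b at 3612 CPM in iBAT and 228 CPM in iWAT. Dio2, the deiodinase that makes active thyroid hormone inside the cell, was at 63.7 CPM (61.5 to 65.9) in iBAT and 0.321 CPM (0.171 to 0.549) in iWAT. The brown isoforms of cytochrome oxidase, Cox8b (61.8 against 1.98 CPM) and Cox7a1 (25.1 against 0.0988 CPM), were higher in iBAT. The fatty acid importer Slc27a2 (235 against 0.346 CPM), the fatty acid carrier Fabp3 (58.8 against 0.148 CPM) and the acyl-CoA thioesterase Acot11 (490.0 against 2.79 CPM) were at or under 2.79 CPM in iWAT. In each of these the iBAT libraries at 1 month, 2 months and after cold also lay above both iWAT libraries.

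Regulators of the list differed in the size of their ratio. Ppara, the nuclear receptor that drives fatty acid oxidation genes, was at 4801 CPM in iBAT and 203 CPM in iWAT, whereas Prdm16, the brown fat cofactor, was at 1230.1 CPM in iBAT and 556 CPM in iWAT, a 2.21-fold ratio. The proton channel Otop1 (79.2 against 2.64 CPM) and the potassium channel Kcnk3 (647 against 57.3 CPM) were higher in iBAT. Glycerol kinase Gk, which lets the cell reuse glycerol, was at 637 against 26.8 CPM, yet iBAT at 1 month (142 CPM) was below cold iWAT (163 CPM). Elovl3, a fatty acid elongase, had no UMI in iWAT and was at 8.71 CPM in iBAT, at least 117-fold higher against the limit of 3 UMIs in iWAT. Elovl3 was at 0.287 CPM in iBAT at 1 month and 203 CPM in cold iBAT. Bmp8b, a secreted factor of active brown fat, was the exception within 2-fold once 1 CPM was added, at 0.772 against 0.371 CPM and a log2 ratio of 0.37. It reached 34.5 CPM in cold iBAT with no UMI in cold iWAT.

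The promoters of Ucp1 and Dio2 are shown because these genes carry the depot contrast and differ in the letters next to their starts. Each sequence runs 5′ to 3′ on the gene's strand over 250 bases before the start and 50 after it, from RefSeq on GRCm38.p6, at chr8:83290098-83290397 (plus) and chr12:90738989-90739288 (minus). Capitals mark exact matches to the cyclic AMP response element TGACGTCA and to the TATA box TATAAA, searched on both strands.
Ucp1: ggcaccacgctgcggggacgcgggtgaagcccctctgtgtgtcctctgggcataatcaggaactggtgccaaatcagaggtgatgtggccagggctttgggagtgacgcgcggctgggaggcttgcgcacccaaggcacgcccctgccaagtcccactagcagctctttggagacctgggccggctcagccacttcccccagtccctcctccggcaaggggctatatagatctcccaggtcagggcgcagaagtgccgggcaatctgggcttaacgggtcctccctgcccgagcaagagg
Dio2: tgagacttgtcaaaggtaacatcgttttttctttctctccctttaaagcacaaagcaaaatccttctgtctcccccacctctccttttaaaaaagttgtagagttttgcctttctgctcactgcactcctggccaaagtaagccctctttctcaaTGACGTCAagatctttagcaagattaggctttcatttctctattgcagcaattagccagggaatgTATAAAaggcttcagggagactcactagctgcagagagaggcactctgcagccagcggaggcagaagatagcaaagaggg
Neither motif is in the Ucp1 window, which says only that these letters are absent from it. Of 27025 promoters that RefSeq gave, TGACGTCA is in 1.88% and TATAAA in 14.2%, and of the 12618 promoters of counted genes in 2.96% and 7.89%. Of the 1391 promoters of genes at least 2-fold higher in iBAT, 2.52% and 8.77% hold them, and of the 1561 of genes at least 2-fold lower, 1.47% and 9.80%. A match is a description of the sequence and not a measured binding site.

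Most genes often named as marks of brown identity were higher in iBAT. Of 15 such genes 14 were counted, 8 (57.1%) were at least 2-fold higher in iBAT and 2 (14.3%) lower, beside 10.8% and 12.5% of all counted genes. The median log2 ratio was 1.83, and 0.75 with 10 CPM added. Zic1, a factor of dorsal mesoderm, was at 3.11 CPM in iBAT and had no UMI in iWAT, at least 41.9-fold higher. Pdk4, which turns pyruvate away from oxidation, was at 716 CPM in iBAT and 63.3 CPM in iWAT. Myo5b, a vesicle motor, was at 68.6 against 1.36 CPM, and the ATP-gated channel P2rx5 at 168 against 11.5 CPM. Slc36a2, an amino acid transporter at the brown fat cell surface, was at 958 against 199.7 CPM. S100b, a calcium-binding protein, was at 8.78 against 0.222 CPM.

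The members lower in iBAT, a share near that of all genes, were Epsti1 and Lhx8. Epsti1 was at 1.64 CPM in iBAT and 48.9 CPM in iWAT, and at 77.2 and 323 CPM in other-cell nuclei. Under the stricter nucleus rule its log2 ratio went from -4.24 to -1.73. Lhx8, a homeobox factor, was at 8.26 CPM in iBAT and 18.4 CPM in iWAT at 22 °C and at 17.3 CPM in iBAT and 8.13 CPM in iWAT after cold, and its 22 °C log2 ratio of -1.06 was -0.59 when nuclei were thinned and -0.88 with equal weight of nuclei.

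**Figure D2:**
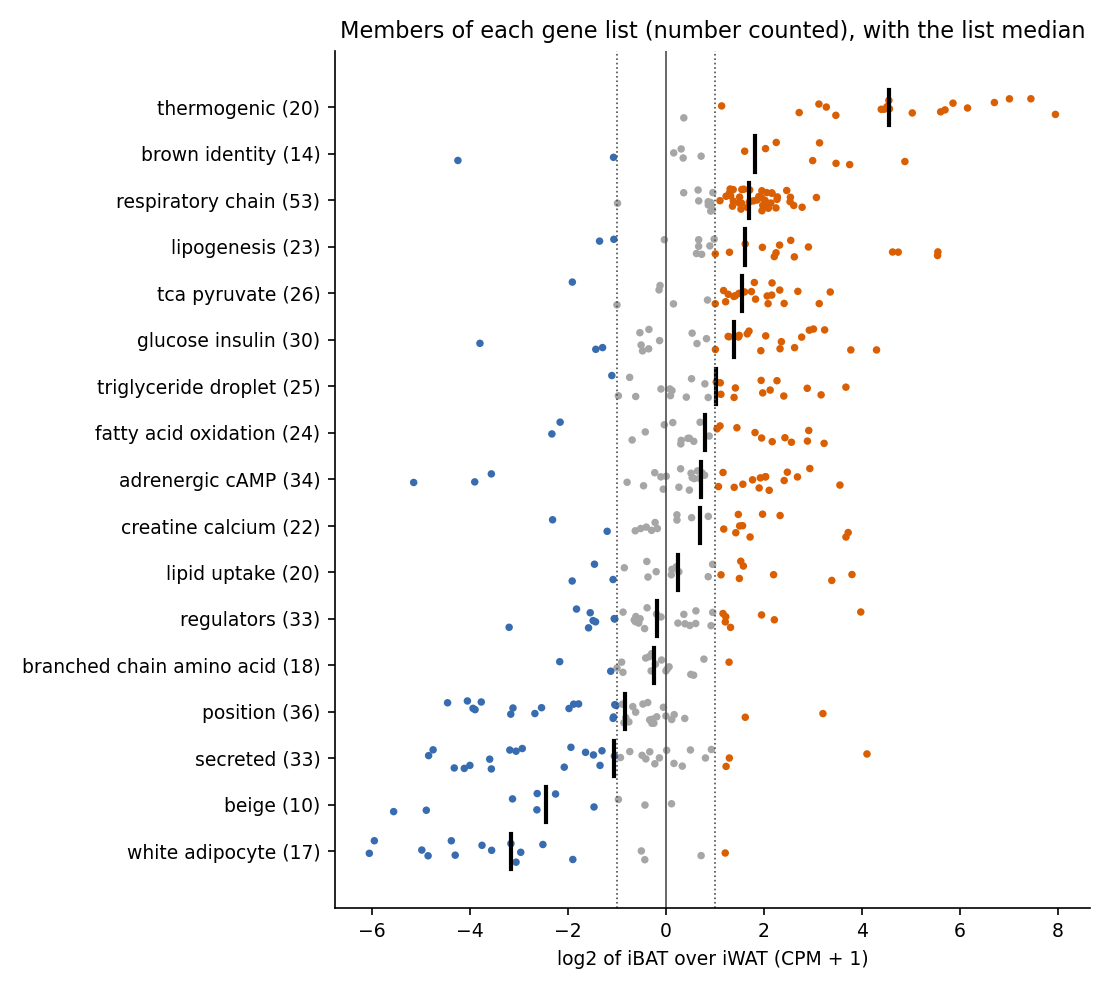
Each point is a member of a gene list, at its log2 ratio of iBAT over iWAT with 1 CPM added, in orange or blue where it is past 2-fold (dotted lines); black bars are the list medians and the number counted is in parentheses. The medians run from 4.56 for the thermogenic list to -3.16 for the white adipocyte list, and the respiratory chain members run from -0.98 to 3.08.

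Among 35 genes of adrenergic and cyclic AMP signalling, more were higher in iBAT than lower. They include phosphodiesterases, which break cyclic AMP down, and protein kinase A subunits, which act after it. Of the 35 genes 34 were counted, 15 (44.1%) were at least 2-fold higher in iBAT and 3 (8.82%) lower, beside 10.8% and 12.5% of all counted genes. The median log2 ratio was 0.72. Among receptors, Adra1a was at 989 CPM in iBAT and 184 CPM in iWAT and Adrb1 at 86.1 CPM in iBAT and 24.5 CPM in iWAT. Adrb3, the main adrenergic receptor of rodent fat cells, was within 2-fold, at 279.7 CPM in iBAT and 383 CPM in iWAT. Adrb3 was nonetheless lower in every iBAT library (140.4, 239 and 344 CPM in the others) than in cold iWAT (389 CPM).

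Downstream of the receptors, the G-protein subunit Gnas was at 1546 CPM in iBAT and 239 CPM in iWAT, 6.48-fold (95% interval 6.34 to 6.62) higher in iBAT. Its relative Gnal went the other way, at 6.83 CPM in iBAT and 91.2 CPM in iWAT. The adenylyl cyclases, which make cyclic AMP, split by isoform: Adcy3 (353 against 62.3 CPM) and Adcy9 (758 against 174 CPM) were higher in iBAT. Adcy5 was 37.5-fold (95% interval 34.9 to 40.2) higher in iWAT, at 16.0 CPM in iBAT and 601 CPM in iWAT. Adcy5 ranged from 2.60 to 61.6 CPM over the 4 iBAT libraries and was at 409 CPM in cold iWAT, so the depots did not overlap.

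Protein kinase A subunits were closer between depots. Of 6 counted, 2 were at least 2-fold higher in iBAT, Prkaca (110.3 against 51.7 CPM) and Prkar2b (4905 against 1858 CPM), beside 10.8% of all counted genes. All 6 had a positive log2 ratio at 22 °C. In the cold pair none of the 6 was past 2-fold, beside 16.9% of all counted genes higher and 12% lower. Prkar2b had a log2 ratio of -0.26 there. Of 10 phosphodiesterases, which break cyclic nucleotides down, 4 were at least 2-fold higher in iBAT and none was lower, beside 10.8% and 12.5% of all counted genes. One of the 4, Pde10a, went from a log2 ratio of 1.58 to 0.91 with equal weight of nuclei. In the cold pair 5 phosphodiesterases were higher and 2 lower, beside 16.9% and 12% of all counted genes. Pde4a was at 111 against 13.6 CPM and Pde8a at 378 against 91.1 CPM. Pde3b, the insulin-activated form, was at 2144 CPM in iBAT and 2218 CPM in iWAT, and Pde4d at 3001 CPM in iBAT and 1791 CPM in iWAT. Pde3a was at 200.4 against 16.1 CPM in adipocytes and at 331 and 644 CPM in other-cell nuclei. Its log2 ratio of 3.56 was 5.82 under the stricter nucleus rule, 4.62 with the highest doublet scores left out and 2.86 with equal weight of nuclei. Akap1, which anchors the kinase at mitochondria, was at 792 CPM in iBAT and 207 CPM in iWAT, and Akap12, a scaffold at the cell surface, at 3.65 CPM in iBAT and 68.2 CPM in iWAT. The log2 ratio of Akap12, -3.90, was -4.71 under the stricter nucleus rule.

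Transcription regulators were higher in iBAT about as often as lower. Of 33, all counted, 7 (21.2%) were at least 2-fold higher in iBAT and 8 (24.2%) lower, beside 10.8% and 12.5% of all counted genes, with a median log2 ratio of -0.19. The main driver of fat cell formation, Pparg (4699 against 2415 CPM), was within 2-fold, as was its partner Cebpa (26.8 against 30.7 CPM). The estrogen-related receptors, which switch on mitochondrial genes, were all past 2-fold, with Esrrg, counted in the thermogenic list, at 2551 CPM in iBAT and 76.9 CPM in iWAT, Esrra at 211 CPM in iBAT and 44.4 CPM in iWAT and Esrrb at 7.82 CPM in iBAT and 2.77 CPM in iWAT. Ebf2, an early factor of the brown lineage, was at 2050.0 CPM in iBAT and 527 CPM in iWAT, and its relative Ebf1 was higher in iWAT, at 2671 CPM in iBAT and 7452 CPM in iWAT.

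Cebpb, which acts early in fat cell formation and in the cyclic AMP response, was at 102 against 40.1 CPM, and Irf4, a partner of Ppargc1a in thermogenic transcription, at 26.4 against 10.8 CPM, with a log2 ratio of 0.92 in thinned nuclei.

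On the iWAT side stood Tcf7l2 (316 against 1118 CPM), the effector of Wnt signalling, and Mitf (175 against 523 CPM), a factor of the lysosome and pigment cell family. Both are expressed in other-cell nuclei as well (959 and 1004 CPM in iWAT). Rxra, the partner of Pparg, was at 30.8 against 91.3 CPM, and Klf15 at 13.5 against 37.9 CPM. Zbtb16 was at 185 CPM in iBAT and 1700.3 CPM in iWAT, but iBAT held 2419.7 CPM at 1 month and 1178 CPM at 2 months, so its levels in iBAT overlapped those of iWAT. Nrf1 (178 against 190.5 CPM) and Tfam (15.7 against 11.9 CPM), which act on mitochondrial genes and mitochondrial DNA, were within 2-fold, and Gabpa was at 95.05 against 41.7 CPM.

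Most nuclear genes of the respiratory chain were higher in iBAT. Of 54 members 53 were counted, 42 (79.2%) were at least 2-fold higher in iBAT and none was at least 2-fold lower, beside 10.8% and 12.5% of all counted genes, and the median log2 ratio was 1.71. Past 2-fold were 15 of 20 genes of complex I, 3 of 4 of complex II, 6 of 6 of complex III, 9 of 11 of complex IV and 7 of 10 of ATP synthase. In 51 of the 53 genes all 4 iBAT libraries lay above both iWAT libraries, beside 25.7% of all counted genes. Atp5g1 was the member on the other side, at 0.232 against 1.43 CPM, with the 4 iBAT libraries below both iWAT libraries. Its log2 ratio of -0.98 stayed within 2-fold because 1 CPM was added to these low levels. Atp5g3, a relative of Atp5g1 which encodes the same membrane subunit of ATP synthase, was at 110.0 CPM in iBAT and 12.2 CPM in iWAT, the largest log2 ratio of the list at 3.08.

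The other members named here lie above the list median, except Sdha. Cytochrome c1 (Cyc1) was at 43.5 CPM in iBAT and 5.46 CPM in iWAT, and cytochrome c (Cycs) at 40.3 CPM in iBAT and 9.09 CPM in iWAT. Among oxidase subunits, Cox5b was at 29.5 against 4.50 CPM and Cox7b at 86.6 against 14.0 CPM. The Rieske protein of complex III, Uqcrfs1, was at 31.6 against 5.71 CPM, and the complex I subunit Ndufv1, which takes electrons from NADH, at 40.4 against 8.35 CPM. The ATP synthase subunits Atp5a1 (142 against 35.7 CPM) and Atp5b (152 against 40.9 CPM) form its catalytic head. The succinate dehydrogenase subunit Sdhd, which also belongs to the citrate cycle, was at 28.1 CPM in iBAT and 6.03 CPM in iWAT, and Sdha, within 2-fold, at 217 against 114 CPM. In iBAT other-cell nuclei, levels of several small subunits were near those of the adipocytes, with Cox6a1 at 78.5 against 55.7 CPM and Cox4i1 at 72.8 against 69.8 CPM. The iWAT other-cell nuclei had 9.60 and 12.97 CPM, so these 2 genes were also higher in iBAT outside the adipocytes. Summed over the list, the level was 4032 CPM in iBAT and 1379 CPM in iWAT adipocytes, and 2436 and 1072 CPM in other-cell nuclei, so the depot difference of the sum is also found outside the adipocytes.

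Promoters are shown for 3 members of this list because they are higher in iBAT together and hold exact matches to motifs of factors that act on mitochondrial genes. Capitals mark the extended nuclear receptor site TCAAGGTCA, read as TGACCTTGA on the other strand, in Atp5g3 (chr2:73911277-73911576, minus) and Sdhd (chr9:50603800-50604099, minus), and the palindromic NRF1 site, whose letters are the capitals in Uqcrc1 (chr9:108936398-108936697, plus). Source, build and window are as for Ucp1.
Atp5g3: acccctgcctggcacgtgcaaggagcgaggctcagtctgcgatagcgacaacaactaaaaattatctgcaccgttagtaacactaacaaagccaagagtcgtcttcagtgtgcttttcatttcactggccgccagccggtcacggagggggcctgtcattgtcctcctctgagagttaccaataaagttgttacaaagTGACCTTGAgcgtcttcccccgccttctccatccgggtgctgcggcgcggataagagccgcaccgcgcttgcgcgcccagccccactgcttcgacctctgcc
Sdhd: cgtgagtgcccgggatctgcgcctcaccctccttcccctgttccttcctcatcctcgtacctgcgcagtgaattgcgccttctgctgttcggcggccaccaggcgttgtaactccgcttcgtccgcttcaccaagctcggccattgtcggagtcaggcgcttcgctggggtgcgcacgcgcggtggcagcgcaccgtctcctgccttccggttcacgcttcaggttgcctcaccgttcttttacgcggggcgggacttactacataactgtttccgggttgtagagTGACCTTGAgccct
Uqcrc1: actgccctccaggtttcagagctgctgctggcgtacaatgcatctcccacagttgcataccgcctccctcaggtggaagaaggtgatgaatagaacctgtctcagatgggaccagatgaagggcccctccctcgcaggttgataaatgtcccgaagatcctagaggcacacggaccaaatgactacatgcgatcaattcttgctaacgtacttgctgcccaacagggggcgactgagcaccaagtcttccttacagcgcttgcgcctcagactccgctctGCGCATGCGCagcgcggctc
Of the 39 counted respiratory chain genes with a promoter sequence, 2 (5.13%) hold TCAAGGTCA and 3 (7.69%) hold the NRF1 site, on either strand. Among the promoters of all counted genes these shares were 0.254% and 1.80%, and among all 27025 promoters they were 0.407% and 0.977%. Neither is in the 23 promoters of the citrate cycle list, which leaves out the succinate dehydrogenase genes counted here, nor in the 20 of the lipogenesis list. TCAAGGTCA is in 0.359% of promoters of genes at least 2-fold higher in iBAT and in 0.320% of those at least 2-fold lower. The cyclic AMP response element TGACGTCA is in 3 (7.69%) of the same 39 promoters. It is in 2 of 23 (8.70%) citrate cycle, 2 of 20 (10%) lipogenesis and 1 of 16 (6.25%) thermogenic promoters. None of the 14 white adipocyte or 21 position promoters holds it. The share was 2.96% for all counted genes and 2.52% for genes at least 2-fold higher in iBAT. These list counts are too small to compare the lists. Uqcrc1, a core subunit of complex III, was at 68.6 CPM in iBAT and 20.2 CPM in iWAT.

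Most listed genes of the citrate cycle and of the entry of pyruvate into mitochondria were higher in iBAT as well. Of 26 genes, all counted, 20 (76.9%) were at least 2-fold higher and 1 (3.85%) was lower, beside 10.8% and 12.5% of all counted genes, and the median log2 ratio was 1.55. The succinyl-CoA ligase subunits diverged: Sucla2, the ATP-forming one, was at 612 against 68.8 CPM, and Suclg2, the GTP-forming one, at 245 against 219 CPM. Pyruvate dehydrogenase subunits Pdha1 (214 against 32.2 CPM) and Pdhb (135 against 24.4 CPM) and the pyruvate carriers Mpc1 (441 against 123 CPM) and Mpc2 (198 against 73.0 CPM) were past 2-fold. Citrate synthase Cs was at 284 against 99.9 CPM, the isocitrate dehydrogenase subunit Idh3a at 258 against 59.8 CPM and the oxoglutarate dehydrogenase Ogdh at 655 against 145 CPM. Pcx, which makes oxaloacetate from pyruvate for fat synthesis, was within 2-fold at 620.2 against 681 CPM. Pdk3, a pyruvate dehydrogenase kinase, was the lower one, at 0.772 against 5.63 CPM, and at 12.6 and 19.4 CPM in other-cell nuclei. The log2 ratio of Pdk3, -1.90, was -1.27 in thinned nuclei. Pdk4, which turns pyruvate away from oxidation and is counted in the brown identity list, was higher in iBAT, as given above.

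Genes of fatty acid oxidation were higher in iBAT in part. Of 24 genes 11 (45.8%) were at least 2-fold higher in iBAT and 2 (8.33%) lower, beside 10.8% and 12.5% of all counted genes, and the median log2 ratio was 0.80. The carnitine acyltransferase that admits fatty acids to mitochondria came as different isoforms, with Cpt1b, counted in the thermogenic list, at 435 CPM in iBAT and 3.16 CPM in iWAT and Cpt1a at 5.44 CPM in iBAT and 27.7 CPM in iWAT. In other-cell nuclei Cpt1a was at 67.2 CPM in iBAT and 81.0 CPM in iWAT, and Cpt1b at 87.9 and 2.49 CPM. The carnitine carrier Slc25a20 was at 367 against 67.1 CPM, the very-long-chain dehydrogenase Acadvl at 76.8 against 7.26 CPM, and the trifunctional subunits Hadha and Hadhb at 609 against 102 CPM and 740.0 against 96.8 CPM. The medium-chain dehydrogenase Acadm was at 597 against 153 CPM, the thiolase Acaa2 at 215 against 28.1 CPM and the electron carrier Etfb at 126 against 27.1 CPM. The peroxisomal genes Ehhadh (116 against 105 CPM) and Hsd17b4 (237 against 173 CPM) were within 2-fold. The other member lower in iBAT was Acsm5, an acyl-CoA synthetase, at 2.84 against 18.2 CPM.

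Most listed genes of fatty acid synthesis, the opposite process, were higher in iBAT too. Of 24 lipogenic genes 23 were counted, 14 (60.9%) were at least 2-fold higher and 2 (8.70%) lower, beside 10.8% and 12.5% of all counted genes, with a median log2 ratio of 1.62. Fasn, the fatty acid synthase, was at 957 CPM (949 to 966) in iBAT and 19.4 CPM (18.1 to 20.8) in iWAT, 49.2-fold (95% interval 45.9 to 52.9) higher. Other-cell nuclei of iBAT held 371 CPM of Fasn. The elongase Elovl6 was at 1491 CPM in iBAT and 30.7 CPM in iWAT, citrate lyase Acly at 814 CPM in iBAT and 29.3 CPM in iWAT and acetyl-CoA carboxylase Acaca at 6417 CPM in iBAT and 1038 CPM in iWAT. Tkt, the transketolase of the pentose phosphate pathway, which helps to supply NADPH, was at 1585 CPM in iBAT and 63.0 CPM in iWAT, 25.2-fold (95% interval 24.2 to 26.2) higher. Acacb, the carboxylase isoform at mitochondria, was at 2205 CPM in iBAT and 473 CPM in iWAT, and Thrsp, a regulator of lipogenesis, at 375 CPM in iBAT and 63.1 CPM in iWAT. The sugar-sensing factor Mlxipl was at 1102 CPM in iBAT and 357 CPM in iWAT, while Srebf1, which answers to insulin and sterols, was within 2-fold at 153 against 81.4 CPM. The desaturases Fads1 (0.965 against 3.09 CPM) and Fads2 (1.16 against 4.50 CPM), which act on polyunsaturated fatty acids, were the members lower in iBAT. Their log2 ratios of -1.06 and -1.35 were under 2-fold in some settings. That of Fads1 was -0.94 with the highest doublet scores left out, and that of Fads2 was -0.85 with equal weight of nuclei.

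The depot difference of this group was smaller in the cold libraries. After 3 days at 4 °C the median log2 ratio of the lipogenic genes was 0.65, with 10 at least 2-fold higher in iBAT, beside 16.9% of all genes in that pair, and 2 lower, beside 12%. In cold iWAT, Fasn was at 155 CPM, Acly at 282 CPM and Acaca at 3128 CPM, above their iWAT levels at 22 °C. Scd1, the stearoyl-CoA desaturase, was at 879 CPM in iBAT and 184 CPM in iWAT at 22 °C, and at 507 CPM in iBAT and 1099 CPM in iWAT after cold. Acss2, which activates acetate, was at 483 against 95.6 CPM at 22 °C and at 635 against 629.5 CPM after cold.

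Triglyceride assembly and droplet genes were moderately higher in iBAT. Of 26 genes 25 were counted, 13 (52%) were at least 2-fold higher and 1 (4%) lower, beside 10.8% and 12.5% of all counted genes, with a median log2 ratio of 1.03. Gpd1 (1058 against 142 CPM), which makes glycerol phosphate, and the mitochondrial Gpd2 (1042 against 80.4 CPM), which oxidises it, had the widest gaps together with the droplet coat of oxidative tissues, Plin5 (76.4 against 7.58 CPM). The acyltransferases Gpam (619 against 116 CPM) and Agpat2 (361 against 73.9 CPM), the phosphatase Lpin1 (666 against 252 CPM) and the droplet coat Plin2 (559 against 144 CPM) were higher in iBAT. Dgat1 (272 against 132 CPM) and Dgat2 (989 against 452 CPM), which complete the triglyceride, were near 2-fold, and the log2 ratio of Dgat1 was 0.98 under the stricter nucleus rule. Pck1, which makes glycerol from pyruvate, was the lower one, at 521 against 1117 CPM, with iBAT at 1 month (1222 CPM) above iWAT. The lipases were within 2-fold, with Pnpla2 at 129 against 122 CPM and Mgll at 783 against 1196 CPM.

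Among genes of lipid uptake, more were higher in iBAT than lower. Of 21 genes 20 were counted, 7 (35.0%) were at least 2-fold higher in iBAT and 3 (15%) lower, beside 10.8% and 12.5% of all counted genes, and the median log2 ratio was 0.24. In the cold pair 8 were higher and 4 lower, beside 16.9% and 12% of all counted genes, and the median was -0.12. Lipoprotein lipase Lpl (609 against 557 CPM) and the fatty acid receptor Cd36 (1648 against 1418 CPM) were within 2-fold. The acyl-CoA synthetase Acsl5 was at 211 against 19.2 CPM and reached 1249.9 CPM in cold iBAT, and the lipase inhibitor Angptl8 was at 30.9 against 1.28 CPM. The lipoprotein receptor Vldlr was at 206 against 43.9 CPM. Gpihbp1, which carries Lpl in capillary endothelium, was at 3.03 against 0.420 CPM in adipocytes and at 134 CPM in other-cell nuclei of iBAT, and under the stricter nucleus rule its log2 ratio was 0.78. The caveola coat genes Cavin1 (49.5 against 188 CPM) and Cav2 (18.6 against 52.7 CPM) and the fatty acid carrier Fabp4 (921 against 1937 CPM) were higher in iWAT.

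The listed genes of glycolysis and lactate were higher in iBAT. They were Hk1, Hk2, Gpi1, Pfkm, Pfkl, Pfkp, Pgk1, Pkm, Ldha, Ldhb and Ldhd, which do not cover every step, and Aldoa of the list was not counted. All 11 were at least 2-fold higher in iBAT in both the 22 °C and the cold pair, beside 10.8% and 16.9% of all counted genes. Their median log2 ratio was 2.33 at 22 °C. Hk2 was at 863 CPM in iBAT and 170.3 CPM in iWAT and Pkm, pyruvate kinase, at 339 CPM in iBAT and 23.7 CPM in iWAT. Phosphofructokinase, the main control step, was higher in all 3 isoforms, Pfkl (110.2 against 13.6 CPM), Pfkm (33.6 against 7.39 CPM) and Pfkp (155 against 54.2 CPM). Of the lactate dehydrogenases, Ldhb was at 94.2 against 12.9 CPM and Ldha at 97.4 against 39.1 CPM. The insulin-regulated glucose carrier Slc2a4 was at 103 against 31.8 CPM, the fructose carrier Slc2a5 at 21.2 against 0.124 CPM, and Slc2a3 went the other way at 5.87 against 94.0 CPM. All 5 glycogen genes were at least 2-fold higher in iBAT at 22 °C and 4 of 5 in the cold pair, beside 10.8% and 16.9% of all counted genes. In 3 of 5 all 4 iBAT libraries lay above both iWAT libraries, beside 25.7% of all counted genes. The phosphorylase Pygl was at 474 against 57.7 CPM. Gys1, the glycogen synthase, was near the limit at a log2 ratio of 1.02, and under 2-fold in 5 settings, the lowest 0.93 in thinned nuclei. Of 8 insulin signalling genes none was at least 2-fold higher and 2 were lower, beside 10.8% and 12.5% of all counted genes. With 8 genes, these counts are not a result about the group. Irs2, among the 2 lower, was at 78.7 against 213 CPM. Over the whole list of 31 genes, 30 were counted, 18 (60%) were higher and 3 (10%) lower, beside 10.8% and 12.5% of all counted genes, with a median log2 ratio of 1.39. The share lower is near that of all genes.

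Part of the genes for routes of heat production other than Ucp1 were higher in iBAT. Of 24 genes of creatine and calcium cycling 22 were counted, 10 (45.5%) were at least 2-fold higher in iBAT and 2 (9.09%) lower, beside 10.8% and 12.5% of all counted genes. The median log2 ratio of 0.70 was 0.30 with equal weight of nuclei (4 lower), 0.39 without a minimum count, 0.22 with 10 CPM added (6 higher, 1 lower) and 1.11 in thinned nuclei. Ckb, the creatine kinase of brown fat, was at 7.01 against 2.52 CPM, and Alpl, a phosphatase of the creatine cycle, at 6.55 against 0.494 CPM; in cold iBAT they were at 70.0 and 60.9 CPM. The creatine carrier Slc6a8 was at 9.46 against 1.66 CPM. The calcium channels Itpr2 (1998 against 155 CPM) and Ryr2 (81.8 against 24.1 CPM) and the calcium pump Atp2a2 (375 against 133 CPM) were higher in iBAT. Slc8b1, which carries calcium out of mitochondria, was lower at 42.6 against 98.6 CPM, as was the calcium pump Atp2a3 at 1.00 against 8.92 CPM. Pm20d1, which makes N-acyl amino acids, was at 30.9 against 1.41 CPM.

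Most genes of branched-chain amino acid breakdown were within 2-fold. Of 19 genes 18 were counted, 1 (5.56%) was at least 2-fold higher in iBAT and 2 (11.1%) lower, beside 10.8% and 12.5% of all counted genes, so these counts are not a result about the list. The median log2 ratio was -0.25 at 22 °C and 0.29 in the cold pair. The mitochondrial transaminase Bcat2, the first enzyme of the path, was at 20.4 CPM in iBAT and 94.6 CPM in iWAT, with all 4 iBAT libraries (19.5 to 63.0 CPM) below both iWAT libraries. Mccc2, of leucine breakdown, was at 118 CPM in iBAT and 257 CPM in iWAT. The dehydrogenase subunits Bckdha (83.9 against 79.9 CPM) and Bckdhb (825 against 1043 CPM) were within 2-fold, and the kinase that inhibits them, Bckdk, was at 14.9 against 5.48 CPM. Slc25a44, the mitochondrial carrier of these amino acids in brown fat, was at 44.2 against 25.3 CPM.

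**Figure D3:**
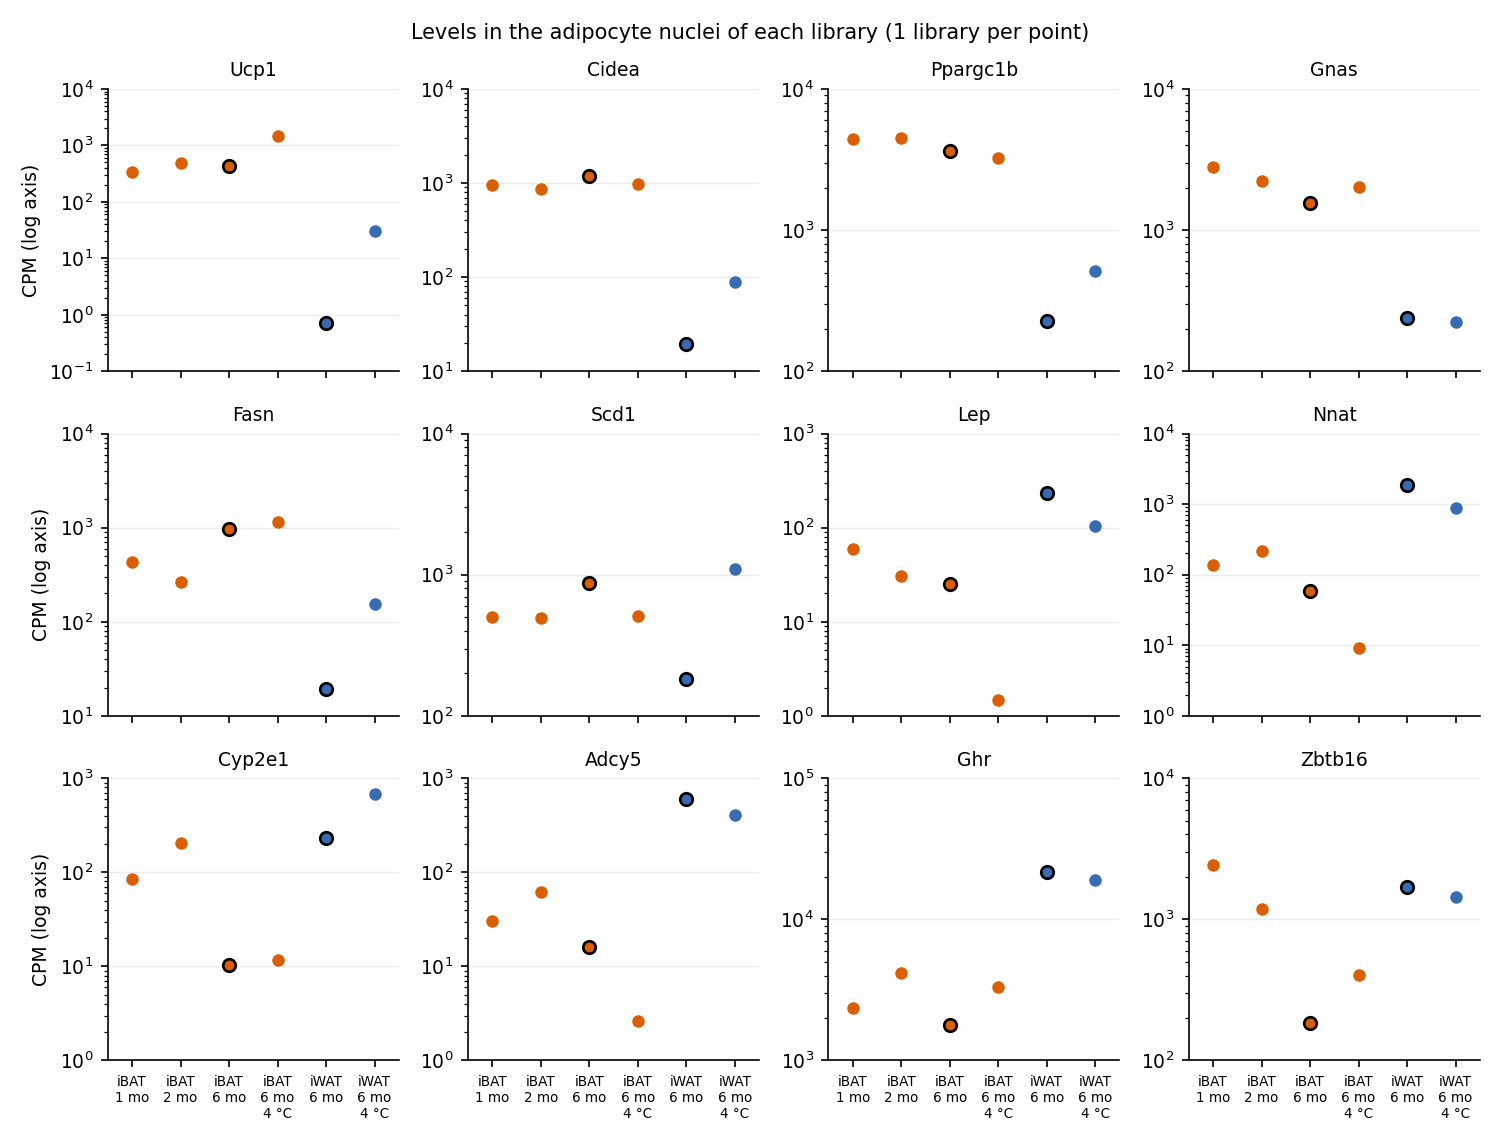
Each panel is a gene, with its level in CPM (log axis) in the adipocyte nuclei of the 4 iBAT (orange) and 2 iWAT (blue) libraries, 1 point per library and black outlines on the 22 °C pair at 6 months. Ucp1, Cidea, Ppargc1b, Gnas and Fasn are higher in every iBAT library, Lep, Nnat, Cyp2e1, Adcy5 and Ghr are lower in every one, and the Scd1 and Zbtb16 levels overlap.

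White adipocyte genes stood apart in iWAT. Of 17 genes, all counted, 13 (76.5%) were at least 2-fold lower in iBAT and 1 (5.88%) higher, beside 12.5% and 10.8% of all counted genes, with a median log2 ratio of -3.16. In the same 13 genes all 4 iBAT libraries lay below both iWAT libraries, beside 18.9% of all counted genes. Leptin, Lep, was at 25.2 CPM (23.9 to 26.6) in iBAT and 233 CPM (228 to 238) in iWAT, 9.24-fold (95% interval 8.72 to 9.79) higher in iWAT. Resistin, Retn, was at 4.75 CPM in iBAT and 112 CPM in iWAT. The xenobiotic enzyme Cyp2e1 was at 10.3 CPM in iBAT and 232 CPM in iWAT, although iBAT at 2 months held 203 CPM, close to the iWAT level. The amino acid exchanger Slc7a10 was at 14.98 CPM in iBAT and 459 CPM in iWAT, and the natriuretic peptide clearance receptor Npr3 at 118 CPM in iBAT and 1601 CPM in iWAT. Psat1, of serine synthesis, was at 1.08 against 23.4 CPM, Nnmt, which methylates nicotinamide, at 9.46 against 85.8 CPM, and Sfrp5, a secreted Wnt inhibitor, at 0.0772 against 5.11 CPM. Npr3 was at 425 CPM in cold iBAT and 809 CPM in cold iWAT, within 2-fold.

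A pair of imprinted genes was in this list. Mest, expressed from the paternal copy, was at 0.444 CPM (0.281 to 0.666) in iBAT and 94.5 CPM (91.5 to 97.5) in iWAT, 213-fold (95% interval 142 to 336) higher in iWAT. Nnat, neuronatin, a membrane protein of the endoplasmic reticulum, was at 58.7 CPM in iBAT and 1879 CPM in iWAT. In thinned nuclei, Nnat was seen in 333 of 16909 iBAT adipocytes (1.97%) and 3002 of 4922 iWAT adipocytes (61.0%), against 1.73% and 25.8% of other-cell nuclei. Nnat lies at chr2:157560078-157562522 on the plus strand, inside Blcap on the opposite strand, so that separate counts rest on the strand of the reads.

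The Nnat promoter, at chr2:157559828-157560127 (plus) from the same source, is shown as the iWAT counterpart of the sequences above. Capitals again mark the NRF1 site.
Nnat: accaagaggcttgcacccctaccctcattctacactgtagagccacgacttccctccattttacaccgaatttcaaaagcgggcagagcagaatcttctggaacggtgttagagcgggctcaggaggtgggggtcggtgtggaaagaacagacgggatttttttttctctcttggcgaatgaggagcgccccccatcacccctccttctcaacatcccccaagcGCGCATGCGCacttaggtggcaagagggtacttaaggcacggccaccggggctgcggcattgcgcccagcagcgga
The same letters are thus next to the start of a gene high in iWAT and of Uqcrc1, which is higher in iBAT. They are in 1.37% of promoters of genes at least 2-fold higher in iBAT and in 0.769% of those at least 2-fold lower, and in 2 of 14 (14.3%) white adipocyte promoters.

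The exception among white adipocyte genes was Gpc3, a cell surface proteoglycan, at 2.53 against 0.519 CPM, with 129 CPM in other-cell nuclei of iBAT; its log2 ratio of 1.22 was 0.63 under the stricter nucleus rule. Carbonic anhydrase Car3, among the most abundant of the list, was at 833 CPM in iBAT and 3099 CPM in iWAT. The list called beige, for cells that acquire brown features within white fat, held 12 genes, of which 10 were counted. None was at least 2-fold higher in iBAT and 7 (70%) were lower, beside 10.8% and 12.5% of all counted genes, with a median log2 ratio of -2.43. The median was -1.85 without a minimum count and -0.70 with 10 CPM added, where 4 were lower. Its members past 2-fold were Hoxc8, Hoxc9, Shox2 (0.869 against 10.5 CPM), Tbx1 (0.0386 against 3.93 CPM), Klhl13 (3.69 against 39.9 CPM), Sp100 (6.70 against 46.4 CPM) and Cd40 (0.251 against 2.45 CPM). Sp100 and Cd40 were higher in the other-cell nuclei of both depots (413 and 16.7 CPM in iWAT), and the log2 ratio of Cd40, -1.46, was -0.38 under the stricter nucleus rule, -2.54 in thinned nuclei and -2.56 with equal weight of nuclei. That of Sp100, -2.62, was -3.42 with equal weight of nuclei.

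Hormones, growth factors and their receptors leaned to iWAT. Of 37 genes 33 were counted, 17 (51.5%) were at least 2-fold lower in iBAT, beside 12.5% of all counted genes, and 3 were higher, with a median log2 ratio of -1.04. Under the stricter nucleus rule 15 were lower and 5 higher, with a median of -0.72. The median was -0.73 without a minimum count and -0.37 with 10 CPM added (3 higher and 10 lower). Ghr, the growth hormone receptor, was at 1789 CPM in iBAT and 21560.0 CPM in iWAT, 12.1-fold (95% interval 11.97 to 12.1) higher in iWAT, and Igf1, its main target, at 26.6 CPM in iBAT and 476 CPM in iWAT. Complement genes were on the same side, with Cfd (adipsin) at 20.6 CPM in iBAT and 163 CPM in iWAT and C4b at 8.46 CPM in iBAT and 269 CPM in iWAT. The binding proteins of insulin-like growth factors Igfbp4 (5.29 against 56.0 CPM) and Igfbp5 (14.1 against 30.1 CPM) were lower in iBAT, the latter with a log2 ratio of -0.74 in thinned nuclei. The guidance ligand Slit3 was at 142 CPM in iBAT and 3828 CPM in iWAT, and its level in other-cell nuclei was 1878 and 4344 CPM.

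The 3 members of this list higher in iBAT make up 9.09% of it, near the 10.8% of all counted genes, so that count is not a result about the list. Ptgds, prostaglandin D synthase, was at 16.7 CPM in iBAT, while iWAT had 1 UMI (0.0247 CPM). Its level was 147 CPM in cold iBAT. Nampt, of NAD synthesis, was at 353 against 143 CPM. Nrg4, a ligand released by brown fat, was at 2353 CPM in iBAT and 999.97 CPM in iWAT at 22 °C and at 2072 CPM in iBAT and 2609 CPM in iWAT after cold. Vegfa, the vessel growth factor, was within 2-fold at 879.7 against 460.0 CPM, with all 4 iBAT libraries above both iWAT libraries. Among factors for nerves, Bdnf (0.251 against 4.25 CPM), Ntf3 (3.30 against 9.59 CPM) and Sema3a (0.753 against 27.0 CPM) were lower in iBAT. Nrg1 and Sema3e, at log2 ratios of -1.63 and -1.34, were at -0.69 and -0.36 under the stricter nucleus rule, and at -2.29 and -2.44 with equal weight of nuclei. The log2 ratio of Bdnf, -2.07, was -1.48 in thinned nuclei, and that of Ntf3, -1.30, was -2.08 under the stricter nucleus rule.

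Most Hox genes, which carry the positional code, were lower in iBAT. Of 30 Hox genes 24 were counted, 16 were at least 2-fold lower in iBAT and none was higher, beside 12.5% and 10.8% of all counted genes, and 23 of the 24 had a negative log2 ratio. Paralogue numbers follow the order from head to tail. Of 9 counted genes numbered 2 to 4, 3 were at least 2-fold lower, of 11 numbered 5 to 8, 9 were, and of 4 numbered 9 or more, all 4 were. In the cold pair 12% of all counted genes were lower and 16.9% higher. There, 5 of 9 Hox genes numbered 2 to 4 were lower and 1 was higher. Of those numbered 5 to 8, 7 of 11 were lower, as were 4 of 4 numbered 9 or more. The difference between these groups of genes was not tested. Hoxc9 had no UMI in iBAT at 6 months and was at 28.5 CPM in iWAT, at least 493-fold higher there. Hoxc10 (12.6 CPM) and Hoxa10 (14.3 CPM) also had no UMI in iBAT, at least 217-fold and 246-fold higher in iWAT.

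Hoxc8 was at 0.985 CPM in iBAT and 92.0 CPM in iWAT, Hoxc5 at 3.36 CPM in iBAT and 94.3 CPM in iWAT and Hoxa9 at 1.81 CPM in iBAT and 45.5 CPM in iWAT. In the Hoxb cluster, Hoxb6 was at 1.02 against 29.0 CPM, Hoxb5 at 0.521 against 8.67 CPM and Hoxb8 at 0.270 against 6.35 CPM. Hoxc4 (23.9 against 90.4 CPM) and Hoxa3 (40.0 against 139.5 CPM), nearer to the head end, were present in both depots. Hoxb4 (12.5 against 16.4 CPM) and Hoxa4 (3.65 against 4.27 CPM) were within 2-fold. Hoxd8 was the counted gene with a positive log2 ratio, at 1.02 against 0.543 CPM. The list of position factors, without Hoxc8 and Hoxc9, which are in the beige list, had 36 of 50 genes counted, 2 (5.56%) at least 2-fold higher and 16 (44.4%) lower, beside 10.8% and 12.5% of all counted genes, with a median log2 ratio of -0.83. The median was -0.44 without a minimum count, -0.21 with 10 CPM added (none higher and 9 lower) and -1.22 in thinned nuclei.

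Of the factors outside the Hox clusters, the dorsal factor Zic4 was at 9.17 against 0.0988 CPM. Tbx5, of heart and forelimb, was at 3.53 against 0.469 CPM, and its log2 ratio of 1.63 was 0.79 with the highest doublet scores left out. Tbx15 was at 13.9 CPM in iBAT and 132 CPM in iWAT, with 311 and 341 CPM in other-cell nuclei. Emx2 was at 0.0579 against 1.21 CPM, and its log2 ratio of -1.06 was -0.92 under the stricter nucleus rule. Genes of the same cluster overlap in part: on GRCm38 Hoxc5 overlaps Hoxc6, Hoxc8, Hoxc9 and Hoxc10 on the same strand, and Hoxa3 overlaps Hoxa4, Hoxa5 and Hoxa6, so how these counts are divided is uncertain.

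**Figure D4:**
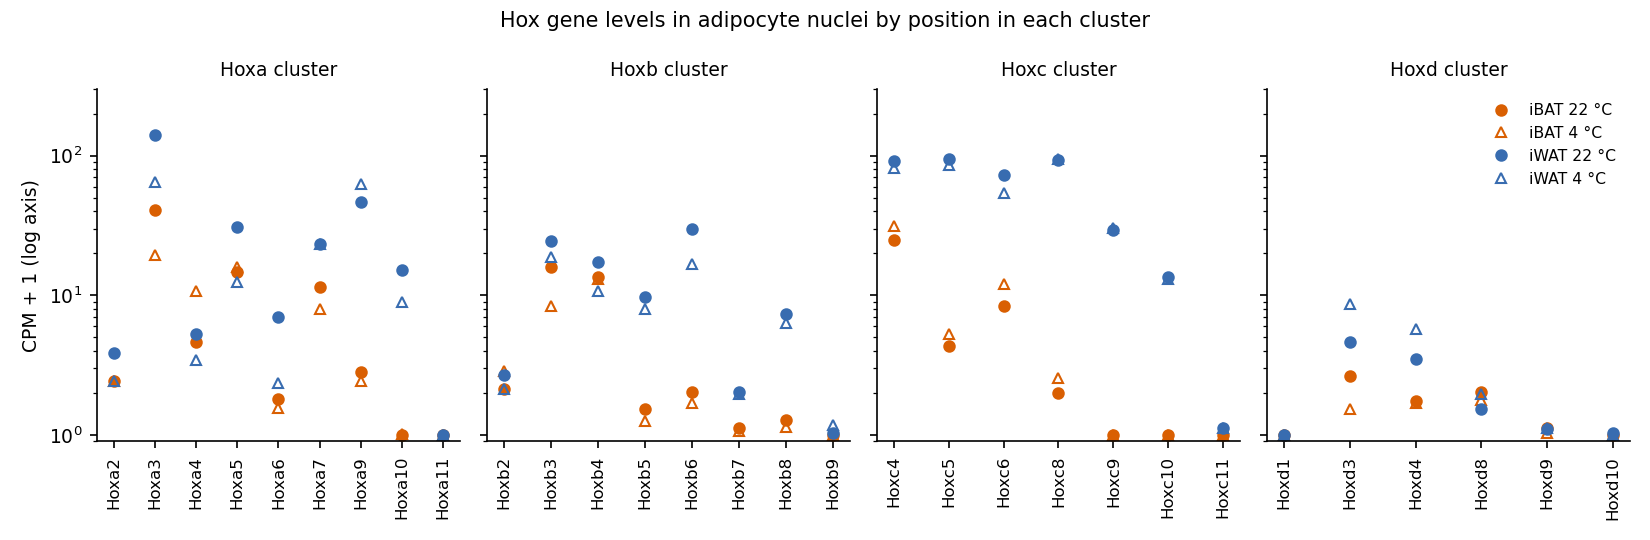
Hox genes are ordered by paralogue number within the 4 clusters, with the level plus 1 CPM on a log axis in iBAT (orange) and iWAT (blue) adipocyte nuclei at 22 °C (filled circles) and 4 °C (open triangles). Of the counted genes 3 of 9 numbered 2 to 4, 9 of 11 numbered 5 to 8 and 4 of 4 numbered 9 or more are past 2-fold at 22 °C, and Hoxc9 and Hoxc10 sit at 0 in both iBAT libraries and between 11.97 and 29.2 CPM in iWAT.

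Ranking all genes by ratio, with 10 CPM added so that rare genes do not lead, brought up genes outside the lists. The 12 genes of the nucleus rule and mitochondrially encoded genes were left out, and 15 genes were taken on each side. On the iBAT side they were A530065N20Rik, Aspg, Pank1, Ntrk3, Rbfox1, Cidea, Ucp1, Acot11, Elovl6, Sorcs2, Cpt1b, Fasn, Esrrg, Lgr6 and Nrp2. In other-cell nuclei of iBAT their levels were between 6.21% (Lgr6) and 38.8% (Fasn) of those in adipocytes. The ranking chose these genes on this contrast, so their sizes are a description.

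At the head was A530065N20Rik, a long intergenic non-coding RNA at chr13:60029711-60116669 on the plus strand, at 929 CPM (920.3 to 937) in iBAT and 0.395 CPM (0.226 to 0.642) in iWAT. Its ratio of 2349-fold (95% interval 1446 to 4110.3) was above that of Ucp1. It overlaps Gm48397 on its strand and Gm48396 on the other. The other iBAT libraries held 694, 227 and 632 CPM, and cold iWAT 2.56 CPM. A530065N20Rik was seen in 54.0% of thinned iBAT adipocyte nuclei and 0.0406% of those of iWAT, against 4.32% and 0.827% of other-cell nuclei.

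Aspg, an asparaginase, was at 633 CPM in iBAT and 1.41 CPM in iWAT, and Lgr6, a receptor for R-spondins that strengthens Wnt signals, at 283 CPM in iBAT and 0.198 CPM in iWAT. Pank1, which starts coenzyme A synthesis, was at 1683 CPM in iBAT and 22.5 CPM in iWAT. The neurotrophin receptor Ntrk3 was at 5980.2 against 119 CPM, the splicing regulator Rbfox1 at 651 against 6.00 CPM and the sorting receptor Sorcs2 at 432 against 2.79 CPM. With equal weight of nuclei the log2 ratio of Rbfox1 was 5.70, compared with 6.54. That of Sorcs2, 6.83, was between 6.04 (equal weight of nuclei) and 7.51 (stricter nucleus rule). Ntrk3 was lower in cold iBAT, at 998 CPM, yet still above cold iWAT at 148 CPM. Nrp2, a receptor for semaphorins and vessel growth factors, was at 650.0 against 13.3 CPM, with 153 and 109 CPM in other-cell nuclei. Its log2 ratio was 4.67 with equal weight of nuclei and 6.30 under the stricter nucleus rule.

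On the iWAT side the 15 genes were Plcl1, Aldh1a1, Adamts5, Gm4876, Nnat, Gulp1, Gm31522, Slit3, Adcy5, Slc2a13, Prr16, Slc8a1, Bcl2, Lhfpl2 and Sntg2. Plcl1, a phospholipase relative without enzyme activity, was at 27.7 CPM in iBAT and 1542 CPM in iWAT, 55.6-fold (95% interval 52.7 to 58.6) higher in iWAT, with 492 and 646 CPM in other-cell nuclei. Aldh1a1, which makes retinoic acid, was at 10.1 CPM in iBAT and 681 CPM in iWAT, the matrix protease Adamts5 at 16.8 CPM in iBAT and 902 CPM in iWAT (other-cell nuclei 393 and 395 CPM), and the inositol carrier Slc2a13 at 5.60 CPM in iBAT and 342 CPM in iWAT. The sodium and calcium exchanger Slc8a1 was at 15.2 against 515 CPM, and the survival factor Bcl2 at 12.8 against 463 CPM.

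These genes differed from the iBAT side in their level outside adipocytes. In 6 of the 15, Slit3, Slc8a1, Bcl2, Gulp1, Aldh1a1 and Prr16, the level in iWAT other-cell nuclei was at least 50% of that in iWAT adipocytes, compared with 0 of 15 on the iBAT side. In iBAT other-cell nuclei Slc8a1 was at 468 CPM, Bcl2 at 298 CPM and Aldh1a1 at 335 CPM, against 15.2, 12.8 and 10.1 CPM in iBAT adipocytes. Under the stricter nucleus rule, the log2 ratio of Slc8a1 was -5.83, compared with -4.99, and the ratio of none of the 15 moved under 2-fold. Gm4876, annotated as antisense, lies at chr6:17065010-17171833 on the minus strand opposite Tes and was at 35.4 CPM in iBAT and 1249 CPM in iWAT, with 80.9 CPM in iWAT other-cell nuclei. Gm31522, a long intergenic non-coding RNA at chr11:81983119-82019967 on the minus strand, was at 2.49 CPM in iBAT and 322 CPM in iWAT and at 30.6 CPM in cold iWAT.

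The same depot comparison in the pair of libraries kept at 4 °C shares no library with the pair at 22 °C, and its depth gap is reversed, with a median of 6745 UMIs per adipocyte nucleus in iBAT and 4685 in iWAT. It compared 11111 with 2927 adipocyte nuclei. Of 16546 genes counted there, 2800 (16.9%) were at least 2-fold higher in iBAT and 1987 (12%) lower. Among 16099 genes counted in both pairs, 1230 were higher in both, 66.2% of the 1858 at 22 °C and 44.7% of the 2752 at 4 °C. On the other side 1217 were lower in both, 58.9% of 2067 and 61.6% of 1975. The opposite difference past 2-fold at 4 °C was found for 43 of the higher and 36 of the lower genes. Across genes, the log2 ratios of the pairs had a Pearson r of 0.75 and a Spearman rho of 0.66, given as a description because genes share their libraries and are not independent.

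All 20 thermogenic genes were at least 2-fold higher in iBAT in the cold pair, with a median log2 ratio of 3.92. Ucp1 was at 1454 CPM in iBAT and 30.0 CPM in iWAT, a ratio of 48.5, compared with 593 at 22 °C. The Ucp1 level was higher after cold than at 22 °C in both depots, and in iWAT it was 0.716 CPM at 22 °C and 30.0 CPM after cold. The respiratory chain list had 47 of 53 genes past 2-fold and a median log2 ratio of 1.96. White adipocyte genes had 10 of 15 lower and 1 higher, with a median of -4.23. All 30 ranked genes kept their side past 2-fold at 4 °C, beside 66.2% of all genes higher at 22 °C and 58.9% of those lower. In all 30 the 4 iBAT libraries did not overlap the 2 iWAT libraries. Of all counted genes, 25.7% had every iBAT library above and 18.9% had every one below. The 22 °C pair that chose the 30 is among these libraries, so part of this separation was set by the choice.

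**Figure D5:**
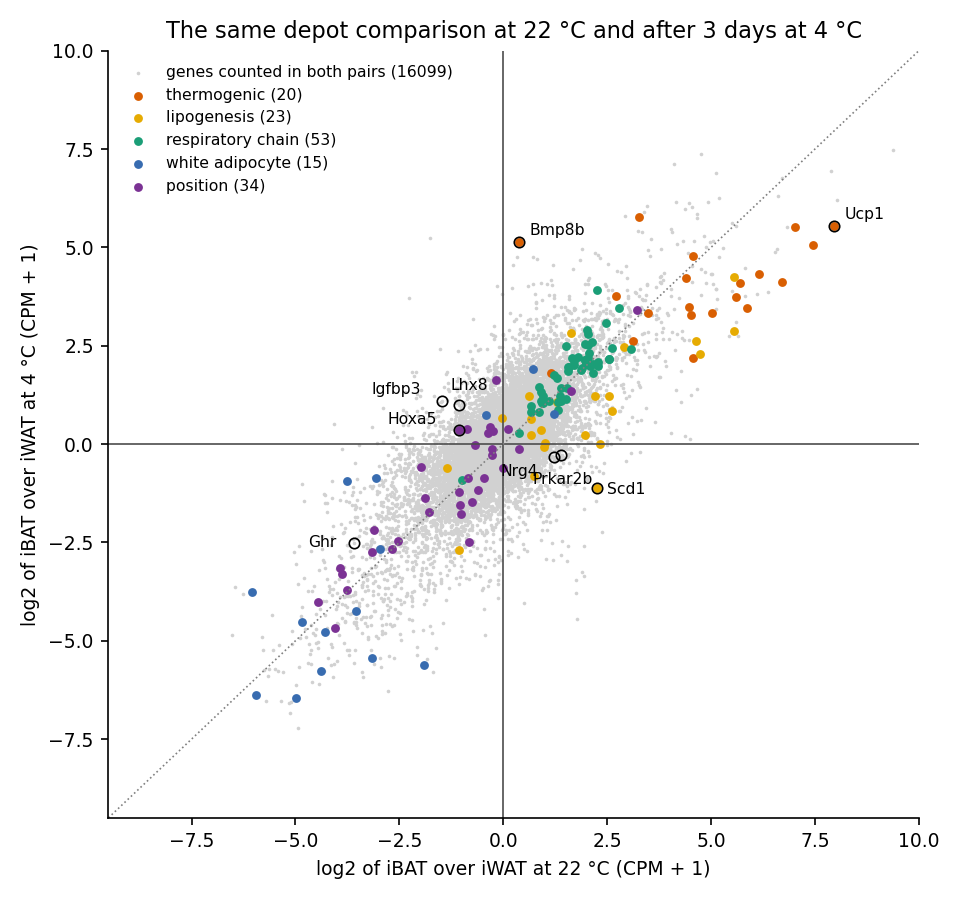
Each point is a gene, at its log2 ratio of iBAT over iWAT with 1 CPM added at 22 °C (horizontal) and after 3 days at 4 °C (vertical), with equal ratios on the dotted line. Thermogenic genes (orange) lie upper right and most white adipocyte genes (blue) lower left, while Scd1, Prkar2b and Nrg4 lie below the horizontal zero line and Lhx8, Igfbp3 and Hoxa5 above it.

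The 3 other iBAT libraries, from younger mice or after cold, put these differences beside the spread between libraries of the same depot. Over all counted genes, 4491 (25.7%) had all 4 iBAT libraries above both iWAT libraries and 3312 (18.9%) had all 4 below. Among the lists, 17 of 20 thermogenic, 51 of 53 respiratory chain and 17 of 30 glucose genes had all 4 above, and 20 of 36 position genes and 15 of 33 secreted genes had all 4 below. Of the 23 lipogenic genes 7 had all 4 above and 1, Fads1, had all 4 below, while the libraries of the depots overlapped in the others, as for Acly at 241 CPM in iBAT at 2 months and 282 CPM in cold iWAT. These libraries differ in age and temperature, so their spread is not that of replicates.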

How the data were processed

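Single-nucleus RNA was measured in 1 library each of iBAT and iWAT at 22 °C, with 2 libraries at 4 °C and 2 of younger iBAT beside them. The deposited files hold UMI counts per gene and nucleus, and Cell Ranger 7.0.0 and the build mm10 are named in the submitters' processing notes. Counts were summed over adipocyte nuclei of each library and divided by their total (Python 3.11.15, numpy 2.4.6, scipy 1.17.1, pandas 2.3.3). Ratios used 1 CPM added to each level and genes with at least 20 UMIs over both libraries. A ratio of 2-fold was called, without a test, because each group has 1 library. Intervals were exact Poisson for levels, conditional binomial for folds and Clopper-Pearson for shares. Summing gave 51794117 UMIs in iBAT and 40479391 in iWAT. Nuclei were not filtered for doublets, except in an alternative using scanpy 1.11.5. It left out the highest doublet scores, a set share of 0.8% for every 1000 kept nuclei. This kept 15177 of 18769 adipocyte nuclei in iBAT and 4745 of 5245 in iWAT. The scoring method itself called 0 kept nuclei doublets in iBAT and 382 in iWAT. TMM factors came from edgeR 4.0.16 in R 4.3.3. The calculation was run on simulated counts with set folds and no differences between animals or preparations, which checks the arithmetic and not the depot comparison. Gene positions were matched by identifier to GENCODE on GRCm38 for 32158 of 32285 genes.

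Named genes were the 15 with the highest and the 15 with the lowest ratio with 10 CPM added, among genes with at least 50 UMIs, and list members past 2-fold with up to 4 others of each list. Further members within 2-fold were named after their values were seen. The members and lists were chosen with earlier results of these data known. Alternatives were TMM scaling, 10 CPM added, no minimum count, mitochondrial limits of 5% and none, at least 1000 genes, a stricter nucleus rule, the highest doublet scores left out, equal weight of nuclei, and thinning to 1000 UMIs. Libraries of other depots were not used here, and a few genes that the rule names are not reported here.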

Additional observations from a re-analysis of the deposited data

Results flagged for a closer look

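In 6 genes of the lists given here, the depot difference past 2-fold at 22 °C had the opposite sign in the cold pair, with each temperature holding 1 library per depot. The difference between temperatures was not tested. Scd1 had a log2 ratio of iBAT over iWAT of 2.25 at 22 °C and -1.11 at 4 °C. The kinase subunit Prkar2b had 1.40 and -0.26, and the ligand Nrg4 had 1.23 and -0.33. In the other direction, the growth factor binding protein Igfbp3 had -1.47 at 22 °C and 1.104 at 4 °C, and with equal weight of nuclei its 22 °C value was -0.96, within 2-fold. The homeobox gene Lhx8 had -1.06 (-0.59 in thinned nuclei and -0.88 with equal weight of nuclei) and 1.00, and Hoxa5 had -1.07 and 0.36.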

How the results depend on the processing

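No paired analysis was made, and each group has 1 library. With 10 CPM added, 825 genes were higher in iBAT and 893 lower, 589 and 557 were so in both temperature pairs, and the list medians were 3.16 (thermogenic) and -2.30 (white adipocyte). The white adipocyte median was -3.41 under the stricter nucleus rule and -3.35 with thinned nuclei. Over the 9 other settings, 1754 to 1995 genes were higher and 1837 to 2877 lower. The Ucp1 shares without thinning were 49.0% in iBAT and 0.248% in iWAT. The medians of other-cell marker lists changed sign in 4 cases: endothelial at -0.20 (thinned) and -0.12 (equal weight of nuclei), muscle at -0.042 (thinned), and nerve and epithelium at -0.022 (no minimum count), and the cause was not tested. Of 291 genes that were ranked or are list members past 2-fold, none changed sign under the 10 settings, and 267 stayed past 2-fold in all settings other than 10 CPM added. With 10 CPM added, 58 of the 291 were under 2-fold. Depth limits what can be said of rare genes, such as those at 0 in a library.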

Other observations

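Of the genes past 2-fold at 22 °C and past 2-fold the other way in the cold pair (43 higher and 36 lower in iBAT at 22 °C), 5 outside the lists are given here, chosen after their values were seen. Map2k6, a kinase upstream of p38, had a log2 ratio of iBAT over iWAT of 1.79 at 22 °C and -4.44 at 4 °C. Lctl, a member of the klotho family, had 2.37 and -2.24. Arntl, a core gene of the circadian clock, had -1.33 and 1.41. Dock8, better known from immune cells, had -1.30 and 1.35, and Fgf14, an intracellular fibroblast growth factor homologue, had 1.93 and -1.66. Each temperature has 1 library per depot, and the difference was not tested.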
